A study of Mus musculus with 20 samples.

Results

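The structural subunits of the mitochondrial respiratory chain and the ATP synthase were examined in mouse liver: 170 probe sets of 83 genes, of 45037 probe sets and 18193 genes on the array. A probe set was taken when its single gene symbol begins with Nduf (complex I, assembly factors of the Ndufaf type left out), Uqcr (complex III), Cox4i, Cox5, Cox6, Cox7 or Cox8 (complex IV) or Atp5 (complex V), or is Sdha, Sdhb, Sdhc or Sdhd (complex II) or Cyc1 (complex III). The rule uses symbols and no expression value. Complex I was measured by 78 probe sets of 36 genes, complex II by 9 of 4 genes, complex III by 17 of 9 genes, complex IV by 35 of 17 genes and complex V by 31 of 17 genes, and 10 further probe sets that name a subunit together with another gene were not used. The subunits encoded in mitochondrial DNA have other symbols and are not among them.

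There were 4 groups of 5 male mice, 1 array per animal. WT mice (PXR+/+) and PXR-KO mice (PXR-/-, without the pregnane X receptor, the nuclear receptor that switches on drug-metabolizing genes in the liver) each received vehicle at 0 mg/kg or CMP013 at 150 mg/kg by daily gavage, all as young adults, and livers were taken at 96 h after a short fast. CMP013 is an inhibitor of β-secretase, the protease that starts amyloid precursor cleavage. The labels give the strain of all 4 groups as C57BL/6, whereas the study's methods and the titles place the PXR-KO mice on C57BL/6NTac, so the knockout and its strain cannot be told apart. Every deposited value divides an animal's signal by the average of the 5 same-genotype mice on vehicle, and is given here as a log2 ratio. A log2 fold change (CMP013 minus vehicle) of -1 is therefore a halving of the signal, and levels, the effect of the knockout under vehicle and the loss of the PXR transcript could not be read from these values.

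Electrons from NADH enter the chain at complex I and those from succinate at complex II. Complex III passes them from coenzyme Q to cytochrome c, complex IV passes them on to oxygen, and complex V uses the proton gradient so formed to make ATP. Hepatocytes are rich in mitochondria and depend on this chain for oxidation of fatty acids, ureagenesis and gluconeogenesis. Most subunits have a single gene, while several of complex IV exist as tissue isoforms from separate genes.

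Array medians over all probe sets lay between -0.03 and 0.01 log2 units. The SD of the log2 ratios over all probe sets was 0.334 to 0.463 in vehicle animals and 0.467 to 0.704 in treated animals. Quantile normalization, used below as an alternative, gives all arrays the same spread of log2 ratios. It narrows treated arrays beside vehicle arrays and can itself remove calls. WT vehicle animals 3 and 4 and PXR-KO vehicle animals 2 and 4 stood apart from the other vehicle animals in an earlier analysis of these arrays, so counts are also given without them. The subunits were quiet probe sets: their median within-group SD was 0.07 in WT vehicle, 0.091 in WT CMP013, 0.085 in PXR-KO vehicle and 0.091 in PXR-KO CMP013 mice, against 0.246 to 0.289 over all probe sets. Pieces of whole liver tissue were homogenized, so fewer cells of a type and less RNA per cell cannot be told apart. Hepatocyte markers averaged -0.33 to -0.15 per treated WT animal against -0.11 to 0.10 in WT vehicle mice, and -0.31 to -0.10 per treated PXR-KO animal against -0.13 to 0.08 in PXR-KO vehicle mice. The part of these shifts in the results below was not tested.

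More of the chain lay below vehicle in the knockout than in WT mice, by counts that carry no test. In PXR-KO mice 136 of 170 member probe sets (80.0%) had a log2 fold change under 0, against 48.8% of all probe sets, with a median of -0.16 (a change of -10.2%). In WT mice 110 (64.7%) lay under 0, against 51.3% of all probe sets, with a median of -0.06. The median of all probe sets was -0.01 in WT livers and 0.01 in the knockout. With 1 probe set for each gene, 69 of the 83 genes in PXR-KO mice and 56 in WT mice lay under 0. Without the 4 vehicle animals the counts under 0 were 140 in PXR-KO and 108 in WT mice.

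The shift was small in every animal but seen in each treated PXR-KO liver. The median over all 170 members was -0.20, -0.11, -0.07, -0.20 and -0.14 in PXR-KO CMP013 animals 1 to 5, against 0.04, 0.00, -0.04, -0.02 and 0.00 in the PXR-KO vehicle animals. All 5 treated animals lay below all 5 vehicle animals. In WT CMP013 animals the same median was -0.02, -0.08, -0.08, -0.06 and -0.01, against -0.03 to 0.02 under vehicle, and these groups overlap. By complex, the treated PXR-KO animals lay below all PXR-KO vehicle animals in complexes I, II, IV and V, while in complex III animal 3 (-0.05) lay within the vehicle range of -0.06 to 0.06. In WT mice only the complex II median separated the groups, at -0.31 to -0.16 in treated animals against -0.04 to 0.01 under vehicle.

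**Figure D1:**
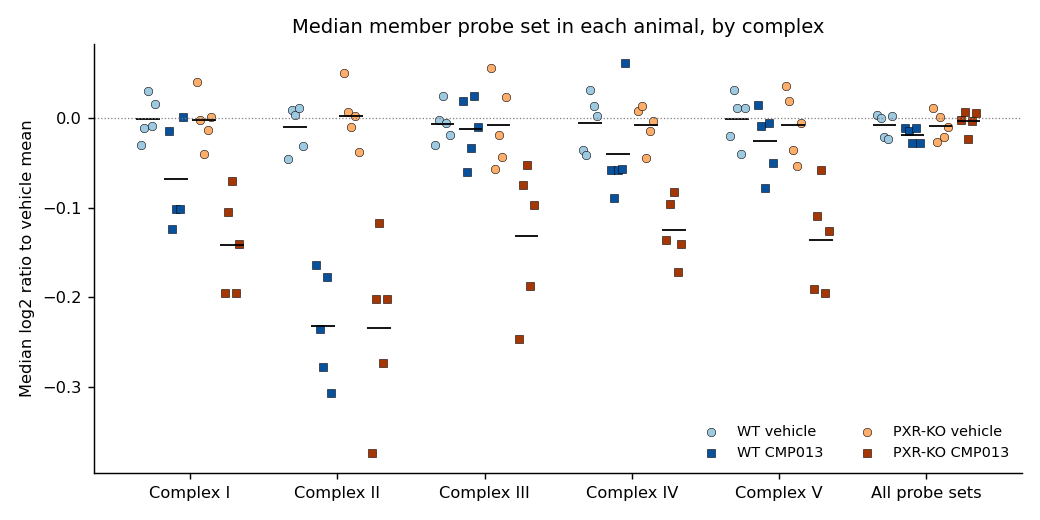
Median log2 ratio to the vehicle mean over the member probe sets of each complex, with all 45037 probe sets at the right, for each of the 20 animals (points) and the mean of each group (bars). The treated PXR-KO animals lie lowest or share the lowest range in every complex, complex II is low in both treated groups, and the medians of all probe sets stay near 0.

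Median log2 fold changes in PXR-KO mice were -0.15 for complex I, -0.22 for complex II, -0.13 for complex III, -0.16 for complex IV and -0.17 for complex V, equal to changes of -14.3% to -8.84% at the median probe set. The corresponding values in WT mice were -0.06, -0.22, -0.01, -0.08 and -0.04. The complex II value in WT mice was -0.14 after quantile normalization, and the complex III value there turned above 0 in 3 alternatives. These medians are descriptions and carry no test.

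Few single probe sets passed the test in either genotype (limma, Benjamini-Hochberg adjusted p under 0.05 over all probe sets). In WT mice 12 of 170 members (7.06%) were called, against 14.4% of all probe sets, of which 3 rose (7.67% of all probe sets rose) and 9 fell (6.72% of all fell). In PXR-KO mice 7 members (4.12%) were called, against 3.65% of all probe sets, and all 7 fell, against 1.54% of all probe sets that fell. None rose in PXR-KO mice, where 2.12% of all probe sets rose. At an unadjusted limma p under 0.05, 53 members were lower and 5 higher in PXR-KO mice, and 18 lower and 12 higher in WT mice. In either direction that was 34.1% of members against 20.1% of all probe sets in PXR-KO mice, and 17.6% against 27.6% in WT mice. Called log2 fold changes of at least 0.32 in size, the minimum of the study's own counting rule, numbered 8 members in WT livers (13.6% of all probe sets) and 7 in the knockout (3.65% of all probe sets).

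The PXR-KO count depended on the fit and on single animals. With all 4 groups in 1 limma fit, 24 members were called and all were lower, against 2.99% of all probe sets that were called lower in that fit. With trend and robust variances, without PXR-KO CMP013 animal 4, or without the 4 vehicle animals, no member was called in PXR-KO mice, although 62, 32 and 41 members had an unadjusted limma p under 0.05. The share of all probe sets at that unadjusted p was not taken in these fits. In WT mice leaving out an animal gave 7 to 11 called members. Separation of the groups needs no variance estimate, but a small shift separates quiet probe sets such as these more easily. Their shares are therefore not like for like with those of all probe sets. In PXR-KO mice 47 members (27.6%) had all 5 treated animals below all 5 vehicle animals, against 3.50% of all probe sets. No member had them above, against 4.07% of all. In WT mice 21 members (12.4%) were fully lower, against 6.96% of all probe sets, and 7 were fully higher, against 7.78%. With the 4 vehicle animals left out, which makes separation easier for every probe set, 67 members were fully lower and 2 fully higher in PXR-KO mice (6.55% and 6.28% of all probe sets), and 27 fully lower and 19 fully higher in WT mice (10.7% and 10.0% of all). Of the 47, complex I held 20, complex IV 13, complex III 6, complex II 4 and complex V 4.

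The difference of the responses (WT response minus PXR-KO response) was tested on all 20 arrays. It was called for 16 members (9.41%), against 11.0% of all probe sets. Of these, 14 members of 10 genes were higher in the WT response, against 5.47% of all probe sets, and 2 were lower, against 5.49% of all. All 14 had a WT fold change above 0 and a PXR-KO fold change below 0, though that of Ndufb3 in WT mice was only 0.0013. Over all members, called or not, 111 (65.3%) had a difference above 0, against 48.4% of all probe sets. Of the 16, 5 were also called in WT livers, 3 in the knockout and 1 in both, while 9 were called in neither genotype alone. The genes with a higher WT response were Ndufa8, Ndufb3, Ndufc1, Ndufs7 and Ndufs8 of complex I, Uqcr10 and Uqcr11 of complex III, Cox6b1 of complex IV, and Atp5k and Atp5mpl of complex V. The lower ones were Cox7a1 and Ndufb2. Without the 4 vehicle animals 9 members were called, 8 of them higher in WT mice, and after quantile normalization 4, of which 3 were higher.

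**Figure D2:**
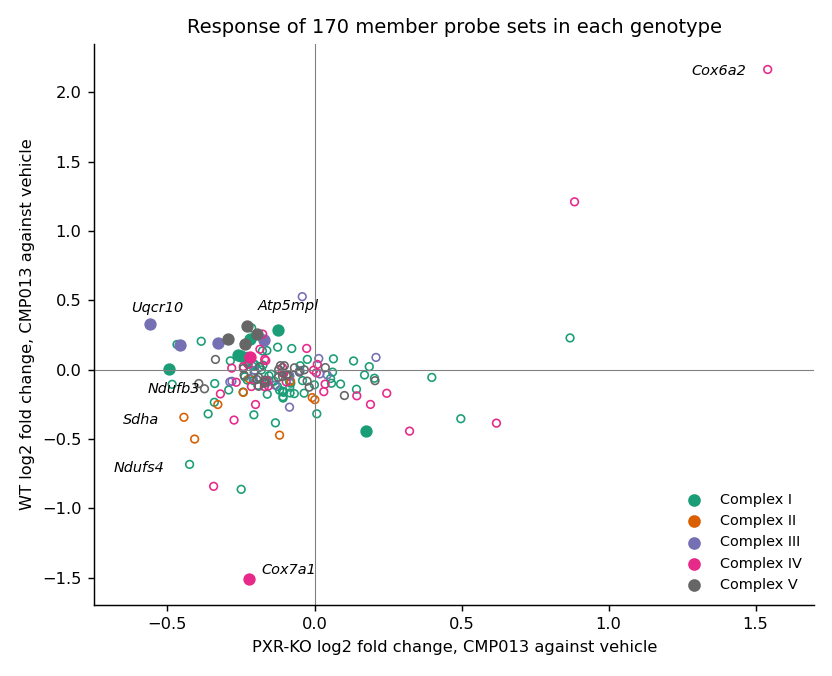
Log2 fold change of each of the 170 member probe sets in PXR-KO mice (horizontal axis) and WT mice (vertical axis), coloured by complex, with filled points for the 16 whose responses differed between genotypes. Of the filled points 14 lie in the upper left, above 0 in WT livers and below 0 in the knockout. Ndufb3 among them is almost at 0 in WT livers. Cox7a1 stands alone at the bottom, and the uncalled Cox6a2 probe set at the upper right has the highest values in both.

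Promoter sequence is shown for 6 of the 12 genes with a called difference: Cox7a1, with the greatest fall, and 5 with opposite responses, which were picked with their motif matches known. Ndufb3, Ndufs8 and Cox6b1, which also had a called difference higher in WT mice, hold none of the motifs below in their windows. Each runs 5′ to 3′ on the gene's strand from 250 bases before to 50 bases after the RefSeq start (GRCm38.p6), and capitals mark the motifs searched on both strands: GCGCATGCG (NRF1), TCAAGGTCA (ERRα and related receptors), CCGGAAGT (ETS factors such as GABPA), AAGATGGC (YY1) and AGTTCA (the hexamer read by PXR and other nuclear receptors). The windows are Ndufa8 at chr2:36049289-36049588 on the minus strand, Ndufc1 at chr3:51408906-51409205 (minus), Uqcr10 at chr11:4704295-4704594 (minus), Uqcr11 at chr10:80406772-80407071 (minus), Cox7a1 at chr7:30183921-30184220 (plus) and Atp5k at chr5:108434350-108434649 (minus).
Ndufa8: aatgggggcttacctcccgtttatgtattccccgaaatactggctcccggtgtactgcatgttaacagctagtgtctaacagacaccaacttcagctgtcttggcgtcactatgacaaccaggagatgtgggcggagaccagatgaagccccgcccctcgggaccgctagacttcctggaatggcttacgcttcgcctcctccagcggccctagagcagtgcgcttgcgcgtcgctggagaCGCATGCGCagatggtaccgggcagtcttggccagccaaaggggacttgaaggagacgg
Ndufc1: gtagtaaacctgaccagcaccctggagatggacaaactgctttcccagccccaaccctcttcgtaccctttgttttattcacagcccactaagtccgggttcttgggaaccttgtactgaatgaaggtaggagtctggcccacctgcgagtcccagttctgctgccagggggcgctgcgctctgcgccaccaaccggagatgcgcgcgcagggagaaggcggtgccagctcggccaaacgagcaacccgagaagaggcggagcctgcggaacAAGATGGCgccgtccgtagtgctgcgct
Uqcr10: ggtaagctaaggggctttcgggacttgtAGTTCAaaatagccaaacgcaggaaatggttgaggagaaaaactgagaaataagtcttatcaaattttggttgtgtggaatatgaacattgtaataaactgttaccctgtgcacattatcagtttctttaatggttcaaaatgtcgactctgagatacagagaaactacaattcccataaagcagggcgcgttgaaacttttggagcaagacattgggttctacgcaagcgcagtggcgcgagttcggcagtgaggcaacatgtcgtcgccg
Uqcr11: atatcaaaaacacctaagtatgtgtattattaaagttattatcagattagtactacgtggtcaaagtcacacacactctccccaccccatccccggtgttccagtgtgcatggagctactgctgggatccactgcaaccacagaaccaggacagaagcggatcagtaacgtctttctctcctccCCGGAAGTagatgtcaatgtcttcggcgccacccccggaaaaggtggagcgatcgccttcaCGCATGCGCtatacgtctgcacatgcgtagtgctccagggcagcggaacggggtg
Cox7a1: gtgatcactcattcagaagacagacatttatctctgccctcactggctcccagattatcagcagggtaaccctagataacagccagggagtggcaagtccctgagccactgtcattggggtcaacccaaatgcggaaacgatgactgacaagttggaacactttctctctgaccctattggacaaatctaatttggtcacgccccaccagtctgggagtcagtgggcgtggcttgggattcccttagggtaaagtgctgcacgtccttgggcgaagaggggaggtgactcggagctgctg
Atp5k: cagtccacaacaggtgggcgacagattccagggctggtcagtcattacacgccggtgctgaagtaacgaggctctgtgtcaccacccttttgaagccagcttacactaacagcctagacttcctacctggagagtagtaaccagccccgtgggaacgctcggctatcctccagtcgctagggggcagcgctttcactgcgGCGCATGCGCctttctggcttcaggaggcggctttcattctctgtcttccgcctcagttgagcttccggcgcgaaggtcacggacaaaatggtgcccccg
In these windows Ndufa8 and Uqcr11 carry the NRF1 letters beside the start, Atp5k carries them at position -50 in overlapping matches on both strands, and Uqcr11 also has an ETS match. Ndufc1 has the YY1 letters 23 bases into the transcript, Uqcr10 has the receptor hexamer at position -222 from the start, and the Cox7a1 window has none of the 5 motifs.

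Over the 67 member genes with a promoter in the RefSeq table, the NRF1 letters were found in 7 (10.4%), against 1.95% of all 27025 genes there. The YY1 letters were found in 9 (13.4% against 3.19%), the ETS letters in 5 (7.46% against 4.31%) and the ERRα letters in 2 (2.99% against 0.466%). The receptor hexamer was found in 6 (8.96% against 15.7%). Of the 9 YY1 matches 6 were in complex I and 3 in complex V genes. Base composition differs between promoters and was not matched, and a match of letters is a description.

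Complex I, the NADH dehydrogenase, is the largest of the complexes. Of its 78 probe sets 1 rose and 5 fell in WT mice and 3 fell in PXR-KO mice, against 7.67%, 6.72% and 1.54% of all probe sets. Ndufv3, a small accessory subunit of the flavoprotein module, fell in both genotypes. Its log2 ratios were -0.27, -0.43, -0.26, -0.36 and -0.28 in WT CMP013 mice, against -0.07 to 0.03 under vehicle, and -0.40, -0.29, -0.29, -0.52 and -0.31 in PXR-KO CMP013 mice, against -0.09 to 0.08. Groups did not overlap in either genotype. The log2 fold change was -0.32 ± 0.07 (SE, n = 5 per group, limma adjusted p = 0.017) in WT livers and -0.36 ± 0.08 (adjusted p = 0.042) in the knockout, and the difference was 0.04 ± 0.10 (adjusted p = 0.82). The PXR-KO call was lost without any 1 of the 10 animals. The WT call was kept without each animal, but lost after quantile normalization, when same-numbered animals formed blocks, and without the 4 vehicle animals (highest limma adjusted p 0.18).

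Ndufb3, an accessory subunit of the membrane arm, fell in PXR-KO mice. The PXR-KO CMP013 animals had -0.54, -0.56, -0.33, -0.63 and -0.42, and the PXR-KO vehicle animals 0.04, 0.04, -0.13, -0.03 and 0.07. WT CMP013 animals had 0.06, -0.03, -0.06, 0.09 and -0.07, within the WT vehicle range of -0.15 to 0.11. Only the PXR-KO groups were apart, with a fold change of -0.49 ± 0.09 (-29.0%, limma adjusted p = 0.017) against 0.00 ± 0.08 in WT mice (adjusted p = 0.99). The difference of 0.50 ± 0.11 passed the test (adjusted p = 0.0054). The PXR-KO call was lost without PXR-KO CMP013 animal 2 or 4. It was also lost after quantile normalization, under trend and robust variances, when same-numbered animals formed blocks, and without the 4 vehicle animals. The difference was lost in the last 2 of these fits (highest limma adjusted p 0.063).

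Ndufa8, an accessory subunit on the intermembrane space side, rose in WT mice. Values were 0.19, 0.24, 0.28, 0.36 and 0.35 in WT CMP013 mice, -0.08 to 0.08 in WT vehicle, -0.02, -0.16, -0.17, -0.15 and -0.12 in PXR-KO CMP013 and -0.02 to 0.02 in PXR-KO vehicle mice. Treated WT animals were all above vehicle, whereas 4 of the 5 treated PXR-KO animals were below their vehicle group. The fold change was 0.29 ± 0.08 in WT livers (limma adjusted p = 0.032), -0.12 ± 0.07 in the knockout (adjusted p = 0.37), and their difference 0.41 ± 0.09 (adjusted p = 0.0048). The WT call was lost on leaving out 9 of the 10 animals in turn. The difference was kept without each, but lost after quantile normalization and when same-numbered animals formed blocks (highest limma adjusted p over the alternatives 0.093).

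Ndufc1, a small subunit of the membrane arm, and Ndufs7, which carries the last iron-sulfur cluster before coenzyme Q, differed between genotypes without a call in either, each with 1 of 2 probe sets. Ndufc1 was 0.25, 0.12, 0.18, 0.26 and 0.29 in WT CMP013 mice and -0.31, -0.24, -0.04, -0.34 and -0.16 in PXR-KO CMP013 mice, with vehicle animals between -0.07 and 0.09. The treated animals of the 2 genotypes thus lay on opposite sides of 0 (difference 0.44 ± 0.10, limma adjusted p = 0.0064). Ndufs7 was 0.05 to 0.17 in treated WT mice and -0.36 to -0.17 in treated PXR-KO mice (difference 0.37 ± 0.09, limma adjusted p = 0.0090). Both differences were kept without each single animal. Both were lost after quantile normalization, when same-numbered animals formed blocks, and without the 4 vehicle animals (highest limma adjusted p 0.094 for Ndufc1 and 0.092 for Ndufs7). The second probe sets gave differences of 0.23 for Ndufc1 (adjusted p = 0.20) and 0.30 for Ndufs7 (adjusted p = 0.070). For Ndufs8, the neighbouring iron-sulfur subunit, 1 of 6 probe sets differed, by 0.35 (adjusted p = 0.047, named after its value was seen).

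Ndufs1, the largest iron-sulfur subunit of the complex, was -0.42, -0.37, -0.31, -0.41 and -0.20 in PXR-KO CMP013 mice against -0.05 to 0.06 under vehicle, and fell by 0.34 ± 0.08 (limma adjusted p = 0.044). That call was lost on leaving out 9 of the 10 animals in turn. In WT mice it was -0.15 to -0.05 against -0.07 to 0.06, and the groups overlap (-0.10 ± 0.07, adjusted p = 0.41). The difference missed the threshold (0.24 ± 0.09, adjusted p = 0.095).

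Other complex I falls in WT mice rested on 1 probe set of a gene with several. Ndufs4, needed for late assembly of the complex, was -0.44, -0.56, -0.71, -0.62 and -1.12 in WT CMP013 mice with 1 probe set, against -0.09 to 0.15 under vehicle (-0.68 ± 0.13, limma adjusted p = 0.0065), and -0.42 ± 0.10 in the knockout (adjusted p = 0.053). Its other 3 probe sets read -0.04, -0.08 and -0.06 in WT mice. Ndufb9 read -0.86 ± 0.18 with 1 probe set (adjusted p = 0.012), where WT vehicle animal 2 (-0.57) lay among the treated animals (-1.22 to -0.52), and -0.17 and -0.10 with the other 2. Ndufv1, the NADH-binding subunit, fell by 0.33 with 1 of its 3 probe sets (adjusted p = 0.040), and 1 Ndufb2 probe set fell by 0.45 (adjusted p = 0.043) while its other 2 read 0.08 and -0.06. The last 2 genes were named after their values were seen. Whether such probe sets read other transcript ends was not tested.

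Ndufa4, long assigned to complex I and found with complex IV, and its paralog Ndufa4l2 did not pass in either genotype. Ndufa4 was 0.07 ± 0.07 in WT livers and -0.02 ± 0.07 in the knockout. Ndufa4l2 was -0.11 ± 0.25 in WT livers and -0.48 ± 0.22 in the knockout, with treated animals spread from -1.09 to 0.24.

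Complex II, succinate dehydrogenase, links the citric acid cycle to the chain and its median fold change was -0.22 in each genotype. The middle value was that of an Sdhc probe set in WT mice and of Sdhb in the knockout, neither of them called. All 9 of its probe sets had a fold change under 0 in WT livers and 8 in the knockout. Sdha, the flavoprotein that oxidizes succinate, was the member that passed. With the probe set that gave the smallest adjusted p it was -0.35, -0.39, -0.31, -0.23 and -0.44 in WT CMP013 mice and -0.53, -0.49, -0.36, -0.52 and -0.32 in PXR-KO CMP013 mice, against -0.03 to 0.03 in all 10 vehicle animals. Treated and vehicle animals were apart in both genotypes. It fell by 0.34 ± 0.07 in WT livers (-21.2%, limma adjusted p = 0.012) and by 0.44 ± 0.08 in the knockout (-26.5%, adjusted p = 0.016), with a difference of 0.10 ± 0.09 (adjusted p = 0.53).

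A further Sdha probe set fell by 0.25 ± 0.07 in WT livers (limma adjusted p = 0.041) and by 0.33 ± 0.08 in the knockout (adjusted p = 0.049), and both calls were lost without any 1 animal. The third fell by 0.47 ± 0.13 in WT livers (adjusted p = 0.037), a call lost in 7 of the 10 fits that leave out an animal, and read -0.12 ± 0.17 in the knockout. The last spread from -2.32 to 1.00 in treated WT animals and gave no call (-0.50 ± 0.52 in WT livers, -0.41 ± 0.37 in the knockout).

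The other subunits of complex II did not pass, although Sdhb and Sdhd were called lower in PXR-KO mice with all 4 groups in 1 fit. Sdhb, the iron-sulfur subunit, was -0.27, -0.20, -0.12, -0.27 and -0.25 in PXR-KO CMP013 mice, all below the vehicle range of -0.05 to 0.05 (-0.22 ± 0.07, limma adjusted p = 0.13), and -0.07 ± 0.07 in WT mice. Sdhc, a membrane anchor, was -0.20 ± 0.07 and -0.22 ± 0.10 with its 2 probe sets in WT livers, and -0.01 ± 0.12 and 0.00 ± 0.09 in the knockout. Sdhd, the other anchor, was -0.16 ± 0.08 and -0.08 ± 0.11 in WT livers and -0.24 ± 0.08 and -0.08 ± 0.16 in the knockout.

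Complex III, the cytochrome bc1 complex, held the widest opposite response, that of Uqcr10, a small accessory subunit of the complex. With the probe set of the smallest adjusted p its log2 ratios were 0.39, 0.38, 0.23, 0.29 and 0.35 in WT CMP013 mice, against -0.05 to 0.07 under vehicle, and -0.94, -0.53, -0.29, -0.58 and -0.47 in PXR-KO CMP013 mice, against -0.07 to 0.07. Every treated WT animal was above and every treated PXR-KO animal below its vehicle group. Uqcr10 rose by 0.33 ± 0.07 in WT livers (25.5% higher, limma adjusted p = 0.015) and fell by 0.56 ± 0.12 in the knockout (-32.2%, adjusted p = 0.034). The difference of 0.89 ± 0.13 (adjusted p = 0.00027) was kept under every alternative run. The calls within each genotype were less firm. The WT rise was kept without each single animal. It was lost after quantile normalization, without the 4 vehicle animals, and when same-numbered animals formed blocks (highest limma adjusted p 0.14). The PXR-KO fall was lost in those 3 fits and under trend and robust variances (highest limma adjusted p 0.15).

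All 3 Uqcr10 probe sets lay above 0 in WT and below 0 in PXR-KO mice. With the second probe set the values were 0.18 ± 0.09 in WT livers (limma adjusted p = 0.21), -0.46 ± 0.10 in the knockout (adjusted p = 0.034) and 0.64 ± 0.12 for the difference (adjusted p = 0.0019). The last probe set, named after its value was seen, differed by 0.52 (adjusted p = 0.011). The 2 PXR-KO calls were lost without 8 and 9 of the 10 animals, respectively, each left out in turn.

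Uqcr11, a further small subunit, was 0.37, 0.19, 0.13, 0.12 and 0.29 in WT CMP013 mice, above the vehicle range of -0.03 to 0.04, and -0.25, -0.07, -0.03, -0.19 and -0.32 in PXR-KO CMP013 mice, where vehicle animals ranged from -0.08 to 0.18. Only the WT groups were apart. The difference was 0.39 ± 0.11 (limma adjusted p = 0.028) and was lost without WT CMP013 animal 1 or PXR-KO vehicle animal 1. It was also lost after quantile normalization, when same-numbered animals formed blocks, and without the 4 vehicle animals (highest limma adjusted p 0.18). Cyc1, cytochrome c1, which hands electrons to cytochrome c, was -0.40, -0.24, -0.21, -0.36 and -0.19 in PXR-KO CMP013 mice and -0.03 to 0.02 under vehicle, apart but short of the threshold (-0.28 ± 0.08, adjusted p = 0.076), which it passed with all 4 groups in 1 fit, and -0.08 ± 0.07 in WT mice. Its difference missed the threshold (0.20 ± 0.09, adjusted p = 0.17).

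Complex IV, cytochrome c oxidase, contained the member with the greatest fall. Cox7a1, the isoform typical of heart, skeletal muscle and brown fat, was -1.37, -1.62, -1.31, -1.61 and -1.79 in WT CMP013 mice, against -0.17, -0.04, 0.21, -0.24 and 0.11 under vehicle. In PXR-KO CMP013 mice it was -0.53, -0.29, -0.02, -0.30 and -0.26, against -0.35 to 0.26 under vehicle. The WT groups were far apart and the PXR-KO groups overlapped. Cox7a1 fell by 1.51 ± 0.13 in WT livers (-64.9%, limma adjusted p = 8.7e-05) and read -0.22 ± 0.13 in the knockout (adjusted p = 0.37). The difference of -1.29 ± 0.18 (adjusted p = 0.00015) was kept in all alternatives, as was the WT call.

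Cox7a1 is not typical of hepatocytes, so markers of other cells are given beside it. Of 9 striated muscle markers (Acta1, Ckm, Myh2, Myh4, Tnnt3, Tnni2, Mb, Myl1 and Pvalb) 1 rose in WT mice (Tnni2, 1.65, adjusted p = 0.0051) and none fell, and their mean ranged from -0.10 to 0.28 in treated against -0.31 to 0.32 in vehicle WT animals. Stellate cell markers averaged -0.56 to -0.22 in treated against -0.15 to 0.19 in vehicle WT animals, with 3 of 8 lower (Dcn -0.80, Rgs5 -0.97 and Lrat -0.71). Sinusoidal endothelial markers averaged -0.42 to -0.33 against -0.13 to 0.11, with 5 of 8 lower (6.72% of all probe sets fell). Their part in the Cox7a1 result was not tested.

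The liver-type paralogs of the same subunit passed no test. Cox7a2 read 0.04 ± 0.07 and 0.15 ± 0.07 with its 2 probe sets in WT livers, and 0.01 ± 0.07 and -0.03 ± 0.07 in the knockout, with none called. Cox7a2l, a homolog involved in joining complexes III and IV into supercomplexes, read -0.25, -0.19 and -0.17 in WT livers and 0.19, 0.14 and 0.25 in the knockout with its 3 probe sets, none called (adjusted p for the difference 0.061 to 0.33). In WT CMP013 animal 5 all 3 were above 0, at 0.08, 0.33 and 0.11, while the other 4 treated WT animals were below 0. Without that animal Cox7a2l was called in WT mice, and 2 of its probe sets were called in the difference.

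Cox6b1, a subunit on the intermembrane space side, was -0.30, -0.15, -0.18, -0.30 and -0.18 in PXR-KO CMP013 mice against -0.05 to 0.07 under vehicle (-0.22 ± 0.08, limma adjusted p = 0.14), and at most 0.12 in treated WT mice (0.09 ± 0.08). Its difference of 0.31 ± 0.09 passed (adjusted p = 0.035) and was lost in 12 of the 20 fits that leave out an animal and in 3 of 6 other alternatives. The second probe set gave 0.24 ± 0.08 (adjusted p = 0.058). Cox8a, the ubiquitous isoform of the smallest subunit, had all 5 treated PXR-KO animals below vehicle with 2 of 3 probe sets and no call. The clearer of them read -0.35 to -0.22 against -0.09 to 0.23 (-0.28 ± 0.09, adjusted p = 0.11). In WT mice the fold changes of the 3 Cox8a probe sets ranged from -0.84 to 0.02, with none called. A Cox8a probe set was called in WT mice with all 4 groups in 1 fit, without the 4 vehicle animals, and without WT vehicle animal 4.

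Cox4i1, a core regulatory subunit, lay near 0 in both genotypes (-0.02 ± 0.07 in WT livers and 0.01 ± 0.07 in the knockout), and Cox6a1 was 0.02 ± 0.07 and 0.07 ± 0.08 in WT livers and -0.11 ± 0.07 and -0.17 ± 0.07 in the knockout. Among the isoforms of lung, muscle and testis, Cox4i2, Cox6b2, Cox8b and Cox8c were not called. Cox6a2, the muscle isoform, had the highest fold change of all members with 1 of 2 probe sets, 2.16 ± 0.72 in WT livers (limma adjusted p = 0.073) and 1.54 ± 0.93 in the knockout (adjusted p = 0.39). Its vehicle animals alone spread from -2.15 to 2.20, and its other probe set read 0.26 ± 0.14 and -0.18 ± 0.11.

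**Figure D3:**
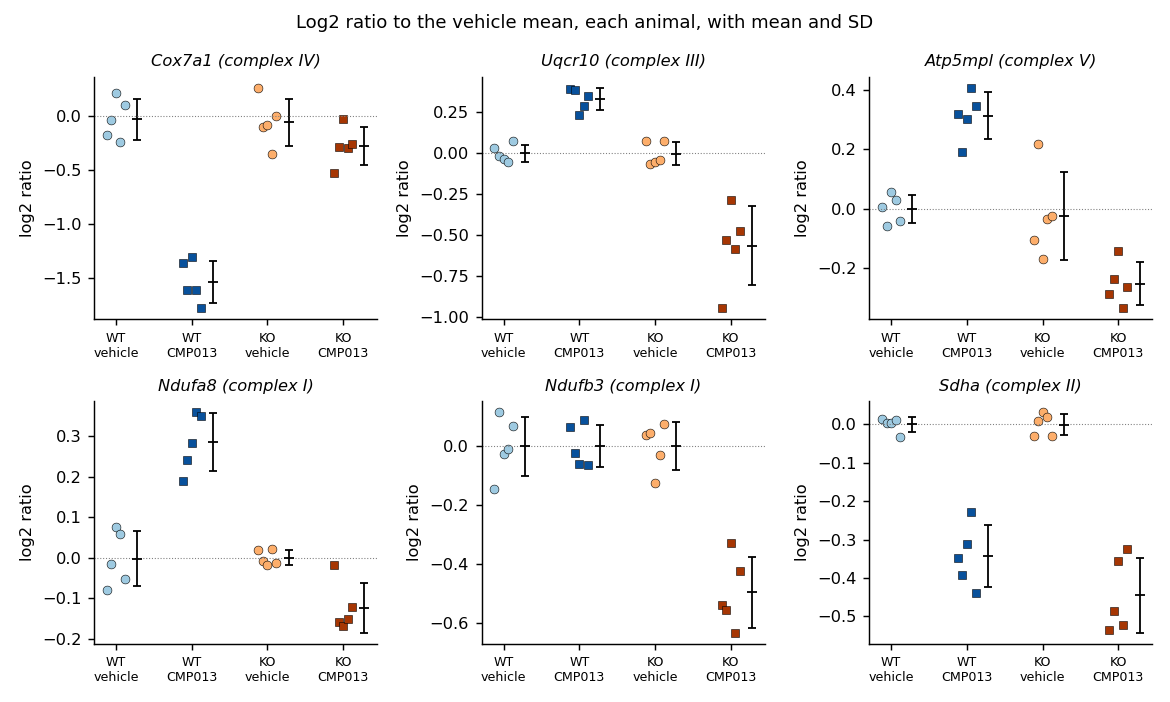
Log2 ratio to the vehicle mean of the same genotype in each animal (points) with mean and SD (n = 5) for 1 probe set each of Cox7a1, Uqcr10, Atp5mpl, Ndufa8, Ndufb3 and Sdha; the vertical scales differ between panels. Cox7a1 is low in WT CMP013 mice alone, Uqcr10 moves up in WT and down in the knockout, Ndufb3 is low in PXR-KO CMP013 mice and Sdha is low in both treated groups.

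Complex V, the ATP synthase, had no member that fell in either genotype by the test, although 28 of its 31 probe sets lay under 0 in PXR-KO mice. With all 4 groups in 1 fit Atp5k was called lower there. Atp5mpl, a small membrane subunit, rose in WT mice. It was 0.32, 0.19, 0.30, 0.40 and 0.35 in WT CMP013 mice against -0.06 to 0.06 under vehicle, and -0.29, -0.23, -0.14, -0.33 and -0.26 in PXR-KO CMP013 mice against -0.17 to 0.22. The WT groups were apart and the PXR-KO groups overlapped. The fold change was 0.31 ± 0.07 in WT livers (24.2% higher, limma adjusted p = 0.020), -0.23 ± 0.09 in the knockout (adjusted p = 0.21), and the difference 0.54 ± 0.11 (adjusted p = 0.0027). Both calls were kept without each single animal. Quantile normalization removed both (highest limma adjusted p for the difference 0.10). The WT call was also lost without the 4 vehicle animals and when same-numbered animals formed blocks (highest limma adjusted p 0.19).

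Atp5k, the e subunit, which takes part in pairing of the enzyme into dimers, differed with all 3 of its probe sets. With 1 of them it was 0.23, 0.05, 0.28, 0.19 and 0.33 in WT CMP013 mice and -0.37, -0.34, -0.06, -0.40 and -0.28 in PXR-KO CMP013 mice, with vehicle animals between -0.10 and 0.11. Treated WT animals were all above 0 and treated PXR-KO animals all below, and the difference was 0.51 ± 0.11 (limma adjusted p = 0.0060). That difference was lost after quantile normalization and when same-numbered animals formed blocks (highest limma adjusted p 0.094). The other 2 probe sets, named after their values were seen, gave 0.42 and 0.45 (adjusted p = 0.020 and 0.031). The 3 genes of the c ring, Atp5g1, Atp5g2 and Atp5g3, passed no test. Atp5g3 was -0.08 ± 0.07 in WT livers and -0.17 ± 0.08 in the knockout, and single probe sets of the other 2 ranged from -0.14 to 0.03 in WT livers and from -0.37 to 0.21 in the knockout.

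Many genes with a call had further probe sets that were not called. In WT mice 6 of the 10 genes with a call had several probe sets, and for none of them were all called. In PXR-KO mice it was 2 of 5 genes, again with none complete. For the difference 7 of 12 genes had several, and Uqcr10 and Atp5k had all called. No gene was called in opposite directions by different probe sets within a comparison. Of the 83 genes 10 have a named pseudogene copy and 47 of the 170 probe sets carry the array maker's mark for probes shared between transcripts, so these readings may include other transcripts.

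Genes around the chain were compared from lists of assembly factors, biogenesis regulators, electron carriers, the citric acid cycle, inner membrane carriers and protein import, with 1 probe set per gene. That probe set was chosen by its mark and then for the smallest vehicle SD. The shares of all probe sets beside the list counts include noisier probe sets and those naming no gene. Counts and shares are therefore not like for like. Assembly factors, which build the complexes but are no part of them, rose in WT mice in 13 of 42 measured genes (7.67% of all probe sets rose). They fell in 2 (6.72% of all probe sets fell). Examples are Atpaf1, a chaperone of the ATP synthase head (0.66, limma adjusted p = 0.0015), and Cox19, a copper-pathway factor of complex IV (0.55, adjusted p = 0.0019). In PXR-KO mice 1 rose, Coa6 (0.52, adjusted p = 0.025), and 1 fell, Sco2 (-0.996, adjusted p = 0.027), both copper-pathway factors of complex IV. Of all probe sets 2.12% rose and 1.54% fell in PXR-KO mice. Sco2 fell in WT mice too (-0.94, adjusted p = 0.0042). The difference was called for 9 of the 42, all higher in WT mice (5.47% of all probe sets). Protein import genes rose in WT livers in 10 of 22 (7.67% of all probe sets rose), with none lower, and none passed in the knockout. Hspe1, the cochaperonin of the matrix, rose by 1.04 (adjusted p = 0.00015) and Timm8a1, a small chaperone of the intermembrane space, by 1.05 (adjusted p = 0.00033), and 9 of the 22 had a higher WT response (5.47% of all probe sets), which became 6 without the 4 vehicle animals and 2 after quantile normalization. Without the 4 vehicle animals 7 assembly factors and 5 import genes rose in WT livers, and no assembly factor passed in the knockout.

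Citric acid cycle and pyruvate dehydrogenase genes included members that rose in WT mice and fell in the knockout. In WT mice 4 of 17 rose and 1 fell, against 7.67% and 6.72% of all probe sets. In PXR-KO mice none rose and 3 fell, against 2.12% and 1.54% of all. Dlat, the acetyltransferase of pyruvate dehydrogenase, rose by 0.53 in WT livers (limma adjusted p = 0.0048) and fell by 0.63 in the knockout (adjusted p = 0.036), with a difference of 1.16 (adjusted p = 0.00014). Pdhx, the protein that binds its partner enzyme, rose by 0.60 (adjusted p = 0.0021) and fell by 0.41 (adjusted p = 0.041). Dlst, of the oxoglutarate dehydrogenase complex, fell by 0.45 in PXR-KO mice (adjusted p = 0.025). The difference was called for 6 of the 17, all higher in WT mice (5.47% of all probe sets). With those 4 vehicle animals left out 3 rose in WT livers and none fell in the knockout.

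Among 19 genes of electron carriers and coenzyme Q synthesis, 4 rose and 2 fell in WT livers and 3 fell in the knockout, and 6 had a higher WT response. The shares of all probe sets were 7.67% and 6.72% in WT mice, 1.54% lower in PXR-KO mice and 5.47% for a higher WT response. Etfdh, which feeds electrons of fatty acid oxidation to coenzyme Q, fell by 0.67 in WT mice (limma adjusted p = 0.0021), and Coq7, a hydroxylase of coenzyme Q synthesis, rose by 0.44 (adjusted p = 0.0040). Coq8a fell by 1.36 (adjusted p = 0.0025) and Pdss2, which makes the side chain of coenzyme Q, by 0.53 (adjusted p = 0.025) in PXR-KO mice. Of 8 inner membrane carriers 1 fell, Slc25a42, a coenzyme A carrier, in PXR-KO mice (-0.49, adjusted p = 0.029). Without the 4 vehicle animals 2 electron carrier and coenzyme Q genes rose in WT livers and 1 fell in the knockout, and no inner membrane carrier passed.

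Of 18 biogenesis regulators 2 rose and 5 fell in WT livers, against 7.67% and 6.72% of all probe sets, and none passed in the knockout. Polg2, the accessory subunit of the mitochondrial DNA polymerase, fell by 0.57 (limma adjusted p = 0.0032). Ppargc1a, the coactivator PGC-1α, was -3.78 to -0.50 in WT CMP013 mice against -0.24 to 0.17 under vehicle (-2.24 ± 0.49, adjusted p = 0.013), and -1.13 to 0.74 in PXR-KO CMP013 mice against -0.24 to 0.17 (-0.02 ± 0.29). The difference passed (adjusted p = 0.021), but of the 3 regulators with a called difference none was called without the 4 vehicle animals or after quantile normalization. Nrf1, the factor named for the motif above and chosen after its value was seen, was -1.01 to -0.36 in WT CMP013 mice against -0.12 to 0.14 (-0.62 ± 0.14, adjusted p = 0.014) and 0.06 ± 0.13 in the knockout. Without the 4 vehicle animals 1 of the 18 fell and none rose in WT mice.

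**Figure D4:**
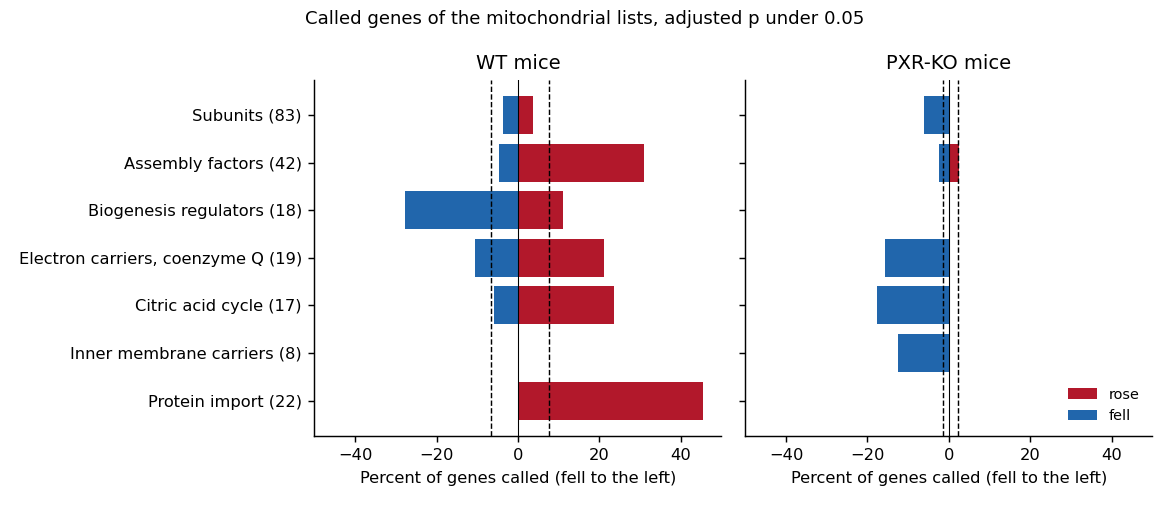
Percent of genes called as risen (right of 0) or fallen (left of 0) in WT and PXR-KO mice for the subunits and the 6 lists, with 1 probe set per gene and the number of genes in parentheses; dashed lines mark the percent of all probe sets called in each direction. In WT mice the import genes (45.5%) and assembly factors (31%) reach furthest to the right while the subunits show 3.61% on each side. In PXR-KO mice the subunits show 6.02% on the left and none on the right. The dashed lines cover all probe sets and are not like for like with 1 chosen probe set per gene.

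After quantile normalization fewer list genes passed in WT mice: 4 assembly factors and 4 import genes rose, 2 biogenesis regulators fell, and no citric acid cycle, electron carrier or coenzyme Q gene rose. In PXR-KO mice 0 citric acid cycle genes, 0 inner membrane carriers and 1 electron carrier or coenzyme Q gene fell. A higher WT response was then called for 5 assembly factors, 4 citric acid cycle genes, 2 electron carrier or coenzyme Q genes and 2 import genes. The share of all probe sets called after quantile normalization or without the 4 vehicle animals was not taken. A loss particular to the lists thus cannot be told from a loss over the whole table.

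Markers of other liver cells were also read beside the PXR-KO shift. Macrophage markers averaged 0.34 to 0.68 in treated against -0.48 to 0.54 in vehicle PXR-KO animals, and 2 of 10 rose, Cd68 (1.11, limma adjusted p = 0.0038) and Marco (4.22, adjusted p = 0.0089). The median fold change of the 10 was 0.25, so the large value of Marco weighs on the means. Of all probe sets 2.12% rose and 1.54% fell in PXR-KO mice. Erythroid markers averaged -0.66 to -0.29 against -0.13 to 0.13, with 1 of 4 lower (Alas2, -1.71, adjusted p = 0.0096). None of the 9 hepatocyte, 8 stellate, 5 bile duct or 7 lymphocyte markers was called in PXR-KO mice, and of 8 endothelial markers Lyve1 rose and Kdr fell. In WT mice 2 of 9 hepatocyte markers fell (Hnf4a -0.45 and Ass1 -1.08) and 4 of 10 macrophage markers fell, against 6.72% of all probe sets. Levels were not given in these ratios, so whether any marker is near background cannot be read. RNA integrity was given per genotype and not per treatment, and its part in the shift was not tested.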

How the data were processed

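Total liver RNA of 20 mice was hybridized to Affymetrix Mouse430_2 arrays without technical replication. In Rosetta Resolver 7.2 the authors divided each animal's signal by the mean of the 5 vehicle animals of its genotype and deposited log10 ratios, which lie between -2 and 2. No member value stood at either limit. Here the log10 ratios were converted to log2. Intensities and detection calls were not used here, so depth over background is unknown, the number of arrays limits the precision, and dim probe sets were kept.

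Gene names come from the platform annotation: 34945 probe sets name 1 gene, 932 several and 9160 none. All 83 member symbols were found in the RefSeq gene table (GRCm38.p6). limma 3.58.1 in R 4.3.3 (lmFit, eBayes, Benjamini-Hochberg over 45037 probe sets, two-sided) compared CMP013 with vehicle on the 10 arrays of a genotype and the difference of responses on all 20, and the scripts were tested on simulated data. The animals are separate mice. Same-numbered vehicle and treated animals did not deviate together (correlations of -0.24 to 0.07), so numbers were not taken as pairs. The methods' counting rule needs single-array p-values not used here.

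Named members are up to 4 called genes per complex and comparison with the smallest adjusted p, all of complex II, Cyc1, tissue isoforms and c ring genes, and the highest and lowest fold changes. For lists, up to 2 called genes per genotype are named. A gene was represented by a probe set without the _s_ or _x_ mark first, then by the smallest vehicle SD. The members and lists were chosen with earlier results of these data known. Alternatives were other scalings, variance models, array weights, the replicate number as a block, 1 fit of 4 groups, a 1.25-fold minimum, 1 probe set per gene, marked probe sets or 4 vehicle animals left out, and each animal left out. Figures were drawn with matplotlib 3.10.9 in Python 3.11.15.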

Additional observations from a re-analysis of the deposited data

Results flagged for a closer look

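In 16 of 232 groups of 5 animals 1 animal lay far from the others, where chance gives about 1 in 20. In WT vehicle mice these were Ndufa4 in animal 2 (log2 ratio -0.122, the others 0.0064 to 0.0483), 1 Ndufb9 probe set in animal 2 (-0.574) and 1 Sdha probe set in animal 5 (-0.0339). In WT CMP013 mice they were Cox6a2 in animal 5 (0.239, the others 2.04 to 2.56), Cox6b1 in animal 2 (-0.00309), Cox7a2l in animal 5 (0.0798) and the median of complex IV in animal 5 (0.0614). In PXR-KO vehicle mice they were Uqcr10 in animal 2 (0.183), Cox4i1 in animal 1 (0.0562), Cox6b2 in animal 1 (0.476) and Cox8a in animal 2 (0.230). In PXR-KO CMP013 mice they were Sdha in animal 1 (-1.11), Sdhd in animal 1 (-0.620), Cox6a2 in animal 3 (-1.26, the others 1.68 to 2.74), Cox7a2 in animal 3 (0.0502) and Cox8c in animal 3 (0.160).

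The response differed between genotypes by the limma interaction test for 11 named probe sets. The WT response was higher for Ndufa8 (0.41), Ndufb3 (0.50), Ndufc1 (0.44), Ndufs7 (0.37), Uqcr10 (0.89 and 0.64), Uqcr11 (0.39), Cox6b1 (0.31), Atp5k (0.51) and Atp5mpl (0.54), and lower for Cox7a1 (-1.29), all on the log2 scale.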

How the results depend on the processing

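Of 28 named calls none reversed in any alternative, 4 were kept in all of them (Cox7a1 in WT mice and in the difference, and 2 Uqcr10 probe sets in the difference) and 16 were kept without each single animal. In WT mice the 12 called members became 2 after quantile normalization (none higher, so the share of higher calls went from 25% to 0%), 6 with 1 probe set per gene, and 4 without the 4 vehicle animals that stood apart. In PXR-KO mice the 7 became 1 after quantile normalization, 24 with all 4 groups in 1 fit (among them Cox8a, Cox6b1, Cyc1, Sdhb, Ndufs4, Ndufs7, Sdhd and Atp5k), and 0 with trend and robust variances (62 at an unadjusted limma p under 0.05) or without the 4 vehicle animals (41 unadjusted). The 16 differences became 4 after quantile normalization (75% higher in WT mice against 87.5%), 25 with array weights, 9 with 1 probe set per gene and 9 without the 4 vehicle animals. With the replicate number as a block, which the labels do not present as a pairing, 1 member was called in WT mice, 0 in PXR-KO mice (25 unadjusted) and 4 in the difference. Leaving out 1 animal gave 7 to 11 members in WT mice (7 without WT vehicle 1 or 3 or WT CMP013 3 or 4), 0 to 5 in PXR-KO mice (0 without PXR-KO CMP013 4) and 12 to 22 in the difference. The cause of these shifts was not tested. Quantile normalization gives treated and vehicle arrays the same spread, although treated arrays spread more widely, and can itself remove calls. In most alternatives the share of all probe sets called was not taken. A loss over the whole table and a loss particular to the members then cannot be told apart. Leaving out the 4 vehicle animals also leaves 3 in each vehicle group. Members under 0 in PXR-KO mice numbered 129 to 141 over all alternatives. Of 150 values of the 10 medians 8 moved by more than the spread between animals and 3 changed sign, all of complex III in WT mice (-0.0456 to 0.0157). The median of complex II in WT mice was -0.14 after quantile normalization. In PXR-KO mice that of complex III was -0.203 with 1 probe set per gene, -0.200 without the 4 vehicle animals and -0.179 to -0.0749 without single animals, that of complex IV was -0.10 without the 4 vehicle animals and -0.158 to -0.0984 without single animals, and that of complex V was -0.12 with 1 probe set per gene. Signal over background was not used here, so no limit for dim probe sets can be given.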
